A study of Drosophila melanogaster with 12 samples.

Results

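Lysozymes are enzymes that cut the peptidoglycan of bacterial cell walls, and peritrophins are chitin-binding proteins of the peritrophic matrix, the sheet that separates food from the cells of the insect midgut. The set described here holds 5 lysozyme genes, LysX, LysP, LysS, LysE and LysB, and 3 peritrophin genes, Peritrophin-15a, Peritrophin-15b and Peritrophin-A. Members were taken by symbol from the annotation of the array. Of the 8 genes, 6 had a probe set, with 1 probe set each, out of 18952 probe sets in all. LysE and LysB were paired with no probe set in the annotation used and are not analysed here. The members were chosen by, among other things, their signal in mutant and wild-type flies of each sex on these same arrays. The genotype differences are therefore given as a description, and no p is given for them.

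RNA of whole flies was hybridised to 12 arrays, with 3 arrays in each of 4 groups: male tko25t, male wild-type, female tko25t and female wild-type flies. The tko25t mutant carries a point mutation in the X-linked gene technical knockout, which encodes protein S12 of the mitochondrial ribosome. Mutants were homozygous females and hemizygous males, and every fly was 1 day old. All flies, controls included, came from crosses of Canton S females to Oregon R males, and for the mutants both parental strains carried tko25t. Females were collected as virgins, and each array held RNA of its own group of flies. The values are MAS5 signals, probe set intensities on a linear scale that had been scaled to the same mean on every array.

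In Drosophila the c-type lysozymes of the cluster on chromosome arm 3L serve mainly in digestion. Flies feed on bacteria and yeast, and these enzymes are made in different parts of the gut and at different stages. LysP is known from the adult salivary gland, LysS from the gastric caeca of larvae, and LysX from the gut around the time of metamorphosis. Peritrophin-15a and Peritrophin-15b are small peritrophins encoded side by side on 2L. Peritrophin-A lies on the X and belongs to the obstructor family, chitin-binding proteins that are best known from the cuticle and the tracheal lining.

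Some libraries carried transcripts of other origin. The summed signal of eggshell and yolk genes in male wild-type replicates 1 and 2 was 6.09% and 4.26% of the mean in females, against 0.294 to 0.564% in the other 4 male arrays. The summed testis genes of female tko25t replicate 1 stood at 4.28% of the male mean, against 0.584 to 1.42% in the other females. The probe sets for 18S rRNA were also 12.6 to 17.5 times higher in wild-type than in tko25t males, while the same ratio, wild type over tko25t, in females lay between 0.779 and 1.60. In males, a difference in RNA preparation and the genotype cannot be told apart. Arrays of a group correlated at 0.951 to 0.988 on the log2 scale.

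LysX (CG9120) was, in females, the lysozyme with the largest genotype difference of the 3 measured. Its signal in female tko25t flies was 162.1, 216.5 and 181.2 on the 3 arrays, against 27.5, 15.6 and 37.2 in female wild-type flies. The groups did not overlap, and the mutant mean of 187 ± 27.6 was 6.97 times the wild-type mean of 26.8 ± 10.8 (SD, n = 3 each). In males the signal was 109.7, 38.2 and 28.8 in tko25t flies, against 41.3, 7.9 and 73.8 in wild-type flies. These male arrays overlapped, with replicate 1 of the mutants and replicate 3 of the wild type above the rest. The log2 difference, tko25t minus wild type, was 2.40 with a standard error (SE) of 0.23 in females and 0.49 with an SE of 0.57 in males. All log2 values were taken after adding 11.6 to the signal, which understates changes of dim genes. The SE of a dim probe set, such as LysX in males, comes from a fit without a limit on signal. The male effect minus the female effect was −1.91 (SE 0.70), and −2.94 without the 3 arrays with other-sex transcripts. Without those arrays replicate 3, at 73.8 the highest of its group, is the only male wild-type array left.

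LysP (CG9116) ran the other way. Female tko25t flies gave 168.7, 175 and 133.4, against 218.4, 240.5 and 226.4 in female wild-type flies. The mutant arrays were all lower than the wild-type ones, at a log2 difference of −0.50 (SE 0.13). Male tko25t flies gave 41.3, 33.5 and 50.4, against 64.8, 43.6 and 73.1 in male wild-type flies, with overlap at the mutant replicate 3 and the wild-type replicate 2. The male difference was −0.42 (SE 0.24), close to that of females in size and with a wider error.

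LysS (CG1165) was dim and showed little difference in females. Its signal was 33.4, 43.2 and 55.6 in female tko25t flies, against 45.3, 46.1 and 45.3 in female wild-type flies, and the wild-type arrays lay inside the range of the mutant ones. Male tko25t flies gave 30.1, 5.4 and 21.7, against 33.4, 25.5 and 39.6 in male wild-type flies. The groups overlapped. The value of 5.4 was under the 25th percentile of its array, which was 14.2. The log2 differences were −0.06 (SE 0.19) in females and −0.62 (SE 0.36) in males.

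Peritrophin-15a (CG17814) was higher in mutants of both sexes. Male tko25t flies gave 879.1, 822.7 and 802.5, against 279.7, 379.8 and 472.9 in male wild-type flies. Female tko25t flies gave 1027.1, 862.7 and 1202.9, against 341.7, 281.9 and 422.9 in female wild-type flies. Every mutant array was above every wild-type array, within a sex and across the sexes. The ratio of means was 2.21 in males, at a log2 difference of 1.15 (SE 0.16), and 2.96 in females, at 1.54 (SE 0.18). The male effect minus the female effect was −0.39 (SE 0.27). Without the 3 arrays with other-sex transcripts named above, the male difference was 0.80. That value rests on male wild-type replicate 3 alone, at 472.9 the highest of its group.

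Peritrophin-15b (CG31893), the neighbouring gene, was dim in all 4 groups. Female tko25t flies gave 58.2, 47 and 64, against 5.5, 2.7 and 12 in female wild-type flies, and the groups did not overlap. Replicates 1 and 2 of the wild-type females were under the 25th percentile of their arrays, 9.3 and 10, and the third was just above its own, 11.2, so no fold is given. Male tko25t flies gave 50, 82.4 and 37.5, against 40.4, 4.4 and 44.1 in male wild-type flies. Here the groups overlapped, and a single wild-type array, replicate 2, was far below the other two. The log2 difference in males was 0.87 (SE 0.48). None is given for females, since their wild-type arrays were at background.

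Peritrophin-A (CG17058) did not separate the genotypes. Male tko25t flies gave 124.4, 75.6 and 179.7, against 50.2, 166.7 and 166 in male wild-type flies. Female tko25t flies gave 134.2, 39.1 and 71.9, against 52.9, 36.1 and 102.8 in female wild-type flies. Arrays of each genotype spanned much of the same range in both sexes. The log2 differences were 0.07 (SE 0.41) in males and 0.27 (SE 0.43) in females.

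**Figure D1:**
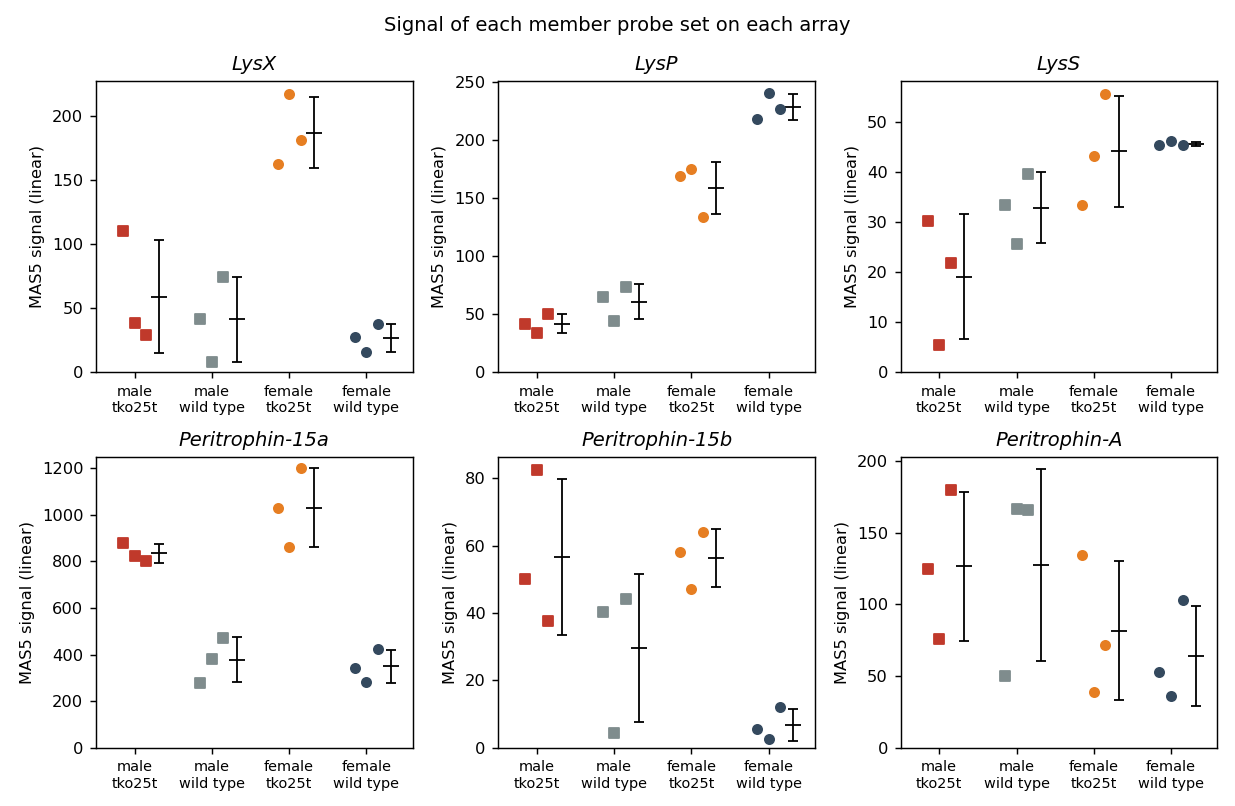
MAS5 signal (linear scale, each axis from 0) of the 6 probe sets on every array, with replicates 1 to 3 from left to right in each group and the mean with its SD (n = 3) in black. Peritrophin-15a separates tko25t from wild-type flies in both sexes, LysX separates them in females, and Peritrophin-A spreads within every group.

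A probe set was tested in a sex where its mean signal was in the upper 50% of the array. In males 2 members passed this limit, Peritrophin-15a and Peritrophin-A, and in females 5 did, with Peritrophin-15b under it. Of the 2 in males 1 was called by limma at an adjusted p under 0.05, Peritrophin-15a, where 12.2% of all probe sets tested were called. Of the 5 in females 2 were called, LysX and Peritrophin-15a, where 2.1% of all were called. These counts repeat what the genes were picked for, and nothing is read from them. LysX also passed the signal limit in females through the mutants, since its wild-type mean of 26.8 was under the median of every female wild-type array (37.8 to 40.8). The mutant arrays lay wholly above the wild-type arrays for 1 of 2 members in males and 2 of 5 in females, against 16.1% and 9.72% of all probe sets tested, and wholly below them for 1 of 5 in females, LysP, against 10.8%. The difference of the genotype effect between the sexes was called for 0 of 5 members by limma, against 0.118% of all probe sets. It is built from the genotype differences that the members were picked on, so nothing is read from this count either. The median log2 difference of all probe sets tested was −0.01 in males and −0.05 in females. In whole flies, fewer cells that make a transcript and less of it per cell cannot be told apart.

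**Figure D2:**
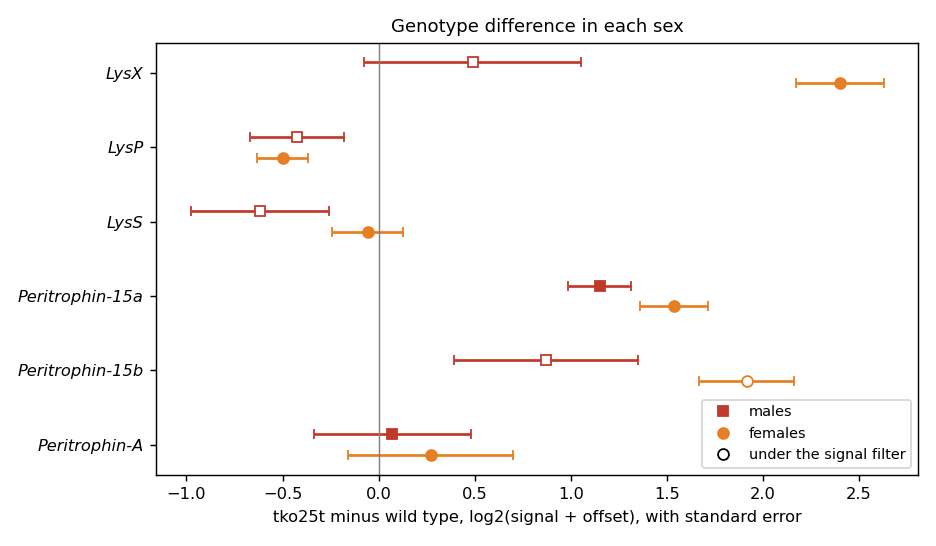
Log2 difference, tko25t minus wild type, of each member in males (squares) and females (circles) with its SE. Open symbols mark probe sets under the signal limit in that sex, with the SE of a fit without that limit. For Peritrophin-15b in females the wild-type arrays were at background, so the size is not a measured one. LysX in females (2.40) and Peritrophin-15a in both sexes (1.15 and 1.54) lie right of 0, and LysP lies left of it in both sexes.

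Males were compared with females within a genotype by limma in a fit of all 12 arrays. This contrast itself was not used to pick the genes. It draws on the group signals known when they were picked, so its p values are no independent test. The fit took probe sets that passed the signal limit in either sex. LysP and LysS passed it in females only, where they are higher, so their values are also given from a fit of all probe sets without the limit. LysP was lower in males in both genotypes. In tko25t flies the mean signal was 41.7 ± 8.46 in males and 159 ± 22.4 in females, a female-to-male ratio of 3.81. In wild-type flies it was 60.5 ± 15.2 in males and 228 ± 11.2 in females, a ratio of 3.78 (SD, n = 3 each). The log2 difference, males minus females, was −1.68 (SE 0.18, adjusted p = 3.33e-06) in mutants and −1.76 (SE 0.18, adjusted p = 1.76e-06) in wild type. Without the limit the adjusted p was 5.61e-06 in mutants and 2.90e-06 in wild type. No male array reached the lowest female array in either genotype. This sex difference was larger than the genotype difference of LysP in either sex.

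LysS was lower in tko25t males than in tko25t females, at −0.94 (SE 0.29, limma adjusted p = 0.0112, and 0.0217 without the limit on signal). Without male tko25t replicate 2, the array at 5.4, the difference was −0.56 with an adjusted p of 0.0390, and over the arrays left out in turn the adjusted p reached 0.0495. These fits without an array kept the limit on signal and were not repeated without it. In wild-type flies it was −0.38 (SE 0.29, adjusted p = 0.251). The wild-type male arrays were all below the female ones, and the difference missed the threshold of limma. After quantile normalization of the arrays, also with the limit on signal, it was −0.77 with an adjusted p of 0.0302.

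For LysX the difference between the sexes in wild-type flies missed the threshold, with means of 41.0 ± 33.0 in males and 26.8 ± 10.8 in females (log2 difference 0.25, SE 0.49, limma adjusted p = 0.655). Without the 3 arrays with other-sex transcripts it was 1.20, with replicate 3 as the only male wild-type array left. In tko25t flies males averaged 58.9 ± 44.2 and females 187 ± 27.6, a log2 difference of −1.66 (SE 0.49), and the groups did not overlap. That value rests on the female mutant arrays for which the gene was picked, and its adjusted p is therefore not given. In the order of group levels, female tko25t flies stood above the 3 other groups, which overlapped one another.

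Neither of the peritrophins tested passed the threshold between the sexes. For Peritrophin-15a the log2 difference was −0.29 (SE 0.19, limma adjusted p = 0.190) in tko25t flies and 0.10 (SE 0.19, adjusted p = 0.653) in wild-type flies. For Peritrophin-A it was 0.63 (SE 0.49, adjusted p = 0.269) in tko25t flies and 0.83 (SE 0.49, adjusted p = 0.144) in wild-type flies. Without male wild-type replicate 1, at 50.2 the lowest of its group, the wild-type difference of Peritrophin-A was 1.33 and was called, with an adjusted p of 0.0209. Without the 3 arrays with other-sex transcripts it was 1.01 in tko25t flies and 1.33 in wild-type flies. For the wild-type value, that fit keeps replicate 3 as the only male wild-type array. For the tko25t value it leaves out female tko25t replicate 1, at 134.2 the highest of its group. Peritrophin-15b was under the signal limit in both sexes, and in wild-type flies it averaged 29.6 in males and 6.73 in females, with overlap.

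Leaving LysX out, 4 members were tested between the sexes. In tko25t flies 2 of 4 were called, LysP and LysS, both lower in males, where 68.1% of all probe sets were called. In wild-type flies 1 of 4 was called, LysP, where 73.6% of all were. With only 4 members, no difference from the array as a whole is read from these counts. The male arrays lay wholly below the female arrays for LysP and LysS, 2 of 4, in tko25t flies, where 45% of all probe sets did so, and for the same 2 in wild-type flies, where 45.5% did. The median log2 difference over all probe sets tested was −0.19 in tko25t and −0.21 in wild-type flies. Male and female arrays of a genotype may have shared a cross, which the fit did not take into account.

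**Figure D3:**
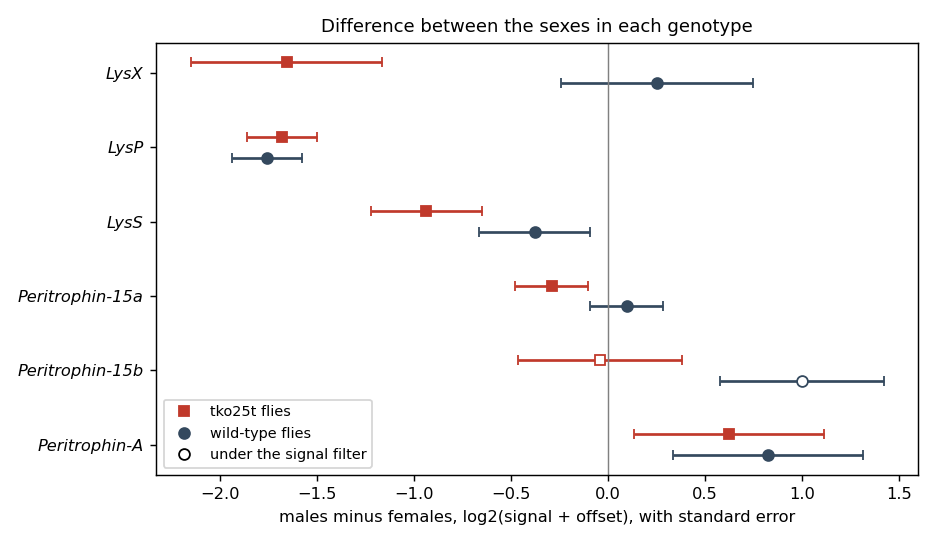
Log2 difference, males minus females, of each member in tko25t flies (squares) and wild-type flies (circles) with its SE. LysP lies at −1.68 and −1.76, and LysX lies left of 0 in tko25t flies (−1.66) and near 0 in wild-type flies (0.25).

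The genes along the chromosome around the members were compared next. In RefSeq's Release 6 annotation the lysozyme cluster runs LysX, Aplip1, mwh, meep, CG9119, LysB, LysD, LysE, LysP and LysS, so LysX is set apart from the other lysozymes by 4 genes of other kinds. Aplip1 encodes an adaptor between kinesin and its cargo, and mwh sets the number of hairs that a wing cell forms. Of the 15 neighbours of the cluster, 12 had a probe set. By limma 0 of 6 tested in males and 0 of 8 tested in females were called, with 2 and 0 at an unadjusted p under 0.05 and 0 by SAM, the test of the methods. In females their log2 differences ran between −0.22 and 0.28, against 2.40 for LysX, −0.50 for LysP and −0.06 for LysS.

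Around the adjoining pair Peritrophin-15b and Peritrophin-15a, 9 of 10 neighbours had a probe set. In females 0 of 4 tested were called by limma, with 0 at an unadjusted p under 0.05 and 0 by SAM, and their differences lay between −0.22 and 0.20. In males 3 of 5 tested were called, where 12.2% of all probe sets tested were called. CG13384 was higher, at 0.79 (adjusted p = 0.0288), and lectin-29Ca at −0.44 (adjusted p = 0.0237) and CG13385 at −0.56 (adjusted p = 0.0241) were lower. The last 2 are the nearest genes on each side of the pair, and their direction was opposite to that of Peritrophin-15a. Unlike Peritrophin-15a, both were dim in females. The female means, tko25t and wild type, were 11.3 and 3.5 for lectin-29Ca, and 3.63 and 5.33 for CG13385. In males they were 639 and 870 for lectin-29Ca, and 84.6 and 131 for CG13385. SAM called 0 of these 5.

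**Figure D4:**
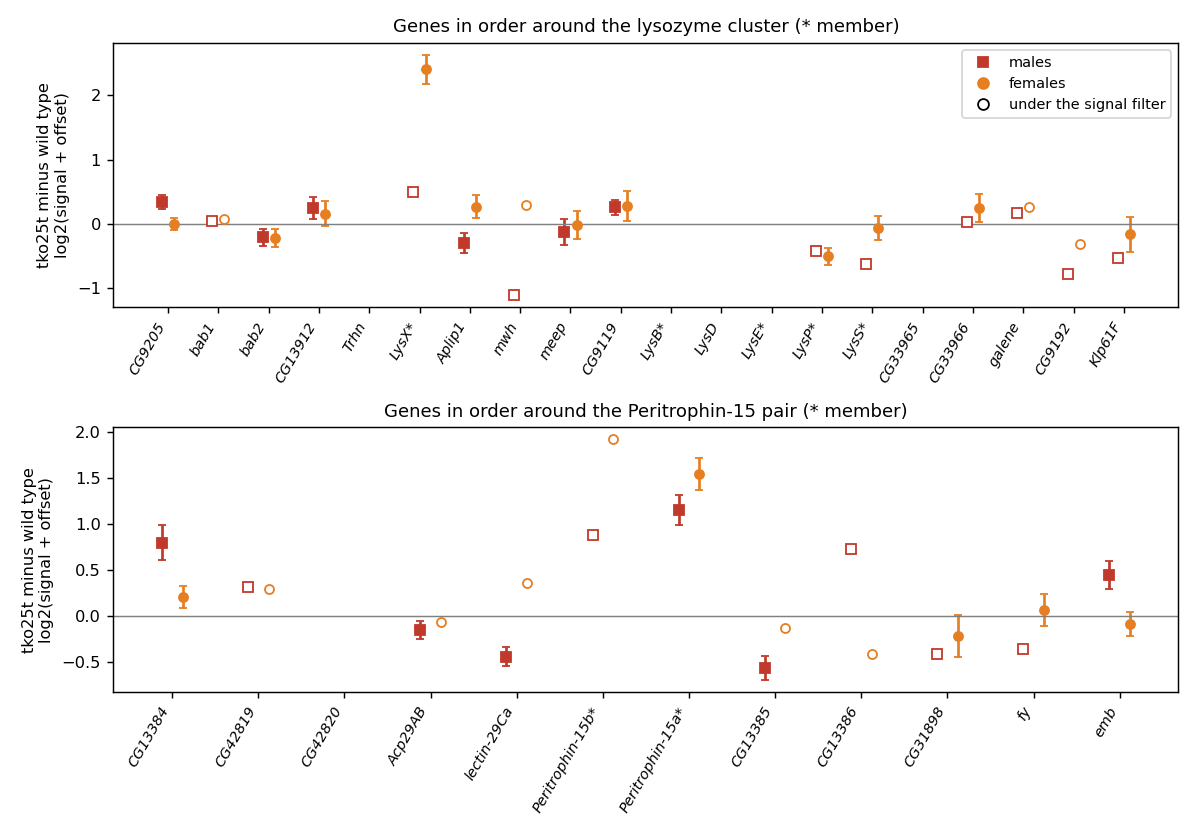
Log2 difference, tko25t minus wild type, of genes in chromosomal order around the lysozyme cluster and the Peritrophin-15 pair, in males (squares) and females (circles), with SE bars for probe sets tested and open symbols for those under the signal limit. Genes without a symbol drawn had no probe set, and members carry a star. LysX at 2.40 and Peritrophin-15a at 1.54 in females stand above neighbours that lie between −0.22 and 0.28 where tested.

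Other genes of the same pathways were taken from lists of families. Of 8 further c-type lysozyme genes 6 had a probe set, and 2 were tested in each sex, with 0 called by limma, 0 at an unadjusted p under 0.05 and 0 by SAM in either. The 5 invertebrate-type lysozymes were all tested. In males 1 fell, CG6426, at −0.36 (SE 0.10, adjusted p = 0.0486), while SAM called 0, and the median was −0.23. In females 0 were called by limma or SAM, with 0 at an unadjusted p under 0.05 and a median of −0.09.

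Peptidoglycan recognition proteins bind the substrate of lysozymes, and some of them degrade it. Of 13 such genes 6 were tested in each sex. By limma 0 were called in males and 0 in females, with 2 and 1 at an unadjusted p under 0.05, and SAM called 0 in males and 1 in females. The 1 in females under 0.05 was PGRP-SC2, at 0.89 (SE 0.23), without overlap of the groups. The 2 in males were PGRP-SC2, at 0.45, and PGRP-SB1, at −0.74. The paper reports PGRP-SC1b higher in female and PGRP-SD higher in male mutants, measured on these arrays. In the annotation used here neither had a probe set of its own, so the counts above leave them out. The median log2 differences of the 6 tested were 0.16 in males and 0.19 in females. Genes of the Imd pathway, which peptidoglycan activates in the gut, gave 0 calls of 9 tested in males and 0 of 10 in females by limma, with 2 at an unadjusted p under 0.05 in each sex and 0 by SAM. Their medians, −0.06 in males and −0.07 in females, were near those of all probe sets.

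Of the 25 genes for making and turning over chitin, the polysaccharide that peritrophins bind, 23 were tested in males and 1 rose. This was Idgf5, a chitinase-like secreted protein, at 0.60 (SE 0.14, limma adjusted p = 0.0277), while SAM called 0. In females 0 of 21 tested were called by limma, with 4 at an unadjusted p under 0.05 and 0 by SAM. The medians were 0.23 in males and 0.10 in females. The obstructor family had 9 further genes with a probe set, and 4 were tested in each sex. By limma and by SAM 0 were called in either sex, with 0 at an unadjusted p under 0.05, at medians of 0.40 in males and 0.32 in females.

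Peritrophin-A and these 4 obstructor genes varied together from array to array. Across the 12 arrays the log2 signal of Peritrophin-A correlated with that of Gasp, a chitin-binding protein of the tracheal lining, at r = 0.949, with obst-B at 0.924, with obst-A, the gene next to Peritrophin-A, at 0.843, and with obst-E at 0.837. Among 9796 probe sets Gasp ranked 16 in likeness to Peritrophin-A. Taken as deviations from the 4 group means, the correlation with Gasp was 0.979, so the likeness lay within the groups. Gasp gave 1600.8, 1045.1 and 2783.3 in male tko25t flies, against 416.7, 1381.1 and 1362 in male wild-type flies, and 1463.1, 254.5 and 781.2 in female tko25t flies, against 383.7, 258.6 and 869.9 in female wild-type flies. The array that was lowest for Gasp in a group was also the lowest for Peritrophin-A in all 4 groups. These correlations describe points that share libraries.

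The spread of Peritrophin-A also went with the level of larval transcripts. The summed signal of 9 larval markers, fat body and glue genes, was 3447 to 9301 in male tko25t flies, against 888 to 1307 in male wild-type flies, and 346 to 5128 in female tko25t flies, against 256 to 915 in female wild-type flies. Within each of the 4 groups the 3 arrays had the same order for this sum as for Peritrophin-A. For each of the 5 other members the orders matched in at most 1 group of 4. Of the 9 markers 3 were tested, the storage protein gene Lsp2 and the fat body genes Fbp1 and Fbp2. By limma all 3 were higher in male mutants and 0 of 3 passed in females, where 2 had an unadjusted p under 0.05 and SAM called 0. The glue genes were dim and under the signal limit, with differences in both directions in each sex. The sum is therefore mainly that of the 3 tested. The part of larval tissue in the signal of the members was not tested.

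The summed signal of blood-cell markers also went with the genotype, though not every marker did. The summed signal of 5 markers was 713 to 814 in male tko25t flies, against 530 to 581 in male wild-type flies, and 573 to 825 in female tko25t flies, against 345 to 468 in female wild-type flies, without overlap in either sex. NimC1, a receptor of phagocytic blood cells, rose in both sexes, at 0.95 in males (limma adjusted p = 0.00391) and 1.37 in females (adjusted p = 0.0102). By limma 2 of 5 markers tested rose in males and 1 of 4 in females, and SAM called 1 in each sex. The second in males was nimC2, at 2.18, which the paper describes as specific to the larval fat body. The rest differed little in males, with Hml at −0.01, eater at 0.05 and Pxn at 0.19. In females Hml was at 0.36, eater at 0.31 and Pxn at 0.63. The part of blood cells in the signal of the members was not tested.

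The genes whose pattern was most like that of LysX were not lysozymes. Over the 12 arrays the closest genes were Jon25Bi (r = 0.915), CG13102 (0.913), Jon25Bii (0.900), CG14499 (0.894) and Tsp29Fa (0.891). Jon25Bi and Jon25Bii are neighbouring genes for digestive serine proteases of the midgut, and Tsp29Fa encodes a tetraspanin. The other lysozymes were far from LysX in this order, with r = 0.17 for LysP and 0.28 for LysS. With the group means removed, these were 0.47 and 0.52, against 0.565 to 0.881 for the 5 closest genes, so the distance came in large part from the group levels. Jon25Bi gave 1658.6, 1609.3 and 1635.6 in female tko25t flies, against 308.3, 189.9 and 367.3 in female wild-type flies. In males it gave 1254.2, 1098 and 339.6 in tko25t flies, against 361, 258.3 and 793.5 in wild-type flies. The array with the lowest LysX signal was the lowest for Jon25Bi in both male groups, and the array that was highest for LysX was the highest for Jon25Bi in both. For Jon25Bi the correlation with the group means removed was 0.800.

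**Figure D5:**
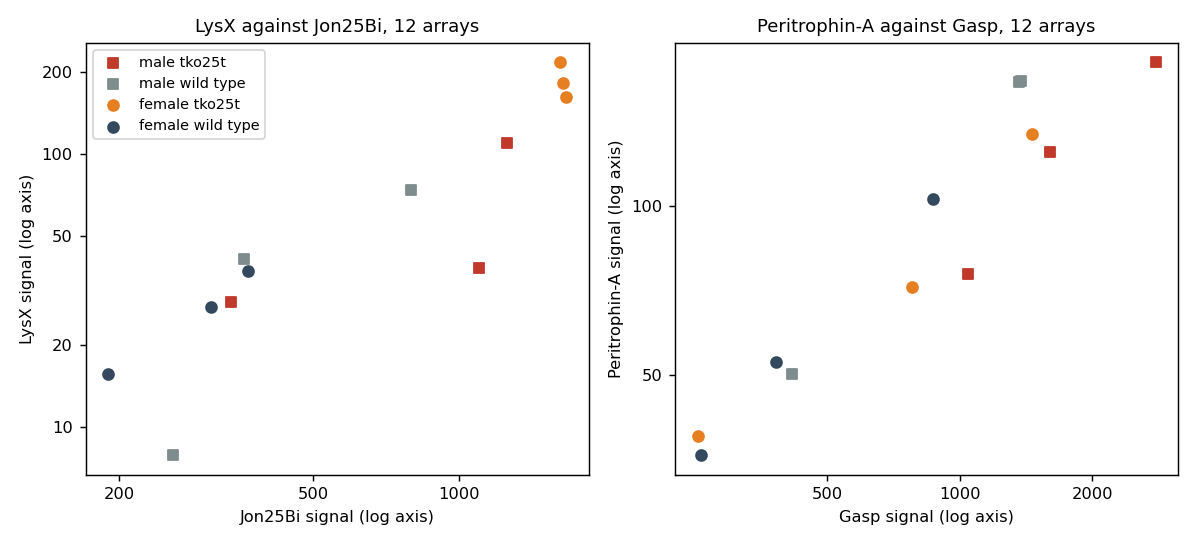
Signal of LysX against Jon25Bi (left) and of Peritrophin-A against Gasp (right) on the 12 arrays, both axes logarithmic, with groups by colour and males as squares. LysX follows Jon25Bi (r = 0.915), with the 3 female tko25t arrays at the upper end, and Peritrophin-A follows Gasp (r = 0.949) with the groups mixed.

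For Peritrophin-15a the closest patterns were those of CG44014 (r = 0.965), CG3819 (0.965), VhaAC45 (0.960), spir (0.951) and CG13324 (0.950). VhaAC45 encodes an accessory subunit of the vacuolar proton pump, and spir an actin nucleator. CG3819 had the widest genotype difference of the 5, at log2 differences of 2.38 in males and 3.27 in females. VhaAC45 differed by 0.36 in males and 0.41 in females. Its likeness to Peritrophin-15a was one of order across arrays and not of size. With the group means removed, the 5 correlations lay between 0.560 for CG3819 and 0.915 for CG13324. LysX and Peritrophin-15a correlated at 0.744, and at 0.310 with the group means removed.

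Markers of the midgut were set beside these values, since peritrophins and most of the lysozymes are products of the gut. Of 12 markers 7 had a probe set. In females 1 of 7 rose, thetaTry, a trypsin gene, at 1.05 (SE 0.15, limma adjusted p = 0.0122), and 6 of 7 had an unadjusted p under 0.05. In males 1 of 7 fell, Ptx1, a transcription factor of the middle midgut, at −0.76 (SE 0.17, adjusted p = 0.0242), while SAM called 0 in males. The medians were 0.40 in females and 0.16 in males. The summed signal of the 7 markers was 18521 to 19979 in female tko25t flies, against 14496 to 16507 in female wild-type flies, without overlap and at a ratio of means of 1.26. In males it was 14572 to 21442 in tko25t flies, against 14567 to 17925 in wild-type flies, at a ratio of 1.10.

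The ratio of Peritrophin-15a in both sexes and that of LysX in females were larger than those of any of these 7 midgut markers. They were not larger than those of all gut genes. CG3819, which the paper calls a gut-specific endonuclease, had log2 differences of 2.38 in males and 3.27 in females. In females Jon25Bi and Jon25Bii also rose more than Peritrophin-15a. Their means were 1634.5 and 1792.6 in tko25t flies, against 288.5 and 394.4 in wild-type flies. In males they rose less, with overlap. These genes were named for their likeness to LysX or Peritrophin-15a. The largest ratio of tko25t to wild-type means among the 7 markers was 2.10 in females and 1.35 in males. After dividing by the midgut sum of the same array, LysX in females was 5.57 times higher in tko25t than in wild-type flies, and Peritrophin-15a was 2.36 times higher in females and 2.01 times higher in males. The trypsin genes alphaTry and betaTry made up 87.4 to 93.7% of that sum. The other 5 markers together were 1.79 times higher in tko25t than in wild-type females and 1.22 times higher in males. Divided by these 5, a choice made after seeing the data, the ratio was 3.94 for LysX in females and, for Peritrophin-15a, 1.66 in females and 1.79 in males. The groups did not overlap in these comparisons. For LysX in males the ratio was 1.22 by the full sum and 1.20 by the 5 markers, with overlap.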

How the data were processed

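The deposited intensities are MAS5 signals of Affymetrix Drosophila Genome 2.0 arrays on a linear scale, which the authors made with the GeneChip Operating Software and scaled per array. The trimmed mean was 150 on all 12 arrays, and no 2 arrays held the same values. The number of arrays, 3 per group, limits the precision. Probe sets were named from the platform annotation, in which 13646 have 1 symbol, 402 several and 4721 none, controls left out. The members and all lists were chosen with earlier results of these data known. The 25th percentile of signal, 11.6 as the median over arrays, was added before log2. Of 18769 probe sets that are no controls, the 50% with the highest mean signal in a sex were tested (9384), or those that passed in either sex (11058). This took the place of the detection filter of the methods. Genotypes were compared within each sex, and sexes and the difference between effects in a fit of all 12 arrays, by limma 3.58.1 (R 4.3.3) with a variance trend and Benjamini-Hochberg adjustment. The fits were tested on simulated data. SAM, the methods' test, was written anew (s0 = 20, fold above 1.5, false discovery rate under 2.5%) and run between genotypes. From each list up to 3 called genes with the largest change were named, and for LysX and Peritrophin-15a the 5 genes with the highest Pearson correlation. Neighbours were the 5 protein-coding genes on each side and those between members. Gasp, the other obstructor genes and the called neighbours were named after their values were seen. So were PGRP-SC2, PGRP-SB1 and the blood-cell markers that were not called. PGRP-SC1b, also due to be named, had no probe set of its own. Alternatives were other offsets, no filter, quantile normalization, a replicate block, all arrays in the genotype fits, SAM and leaving out arrays. Python 3.11.15 with pandas 2.3.3 and numpy 2.4.6 was used for other steps.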

Additional observations from a re-analysis of the deposited data

How the results depend on the processing

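Of 82 counts of called members under the alternatives, 77 were equal to the count with the settings above and 5 differed, 3 of them by over 1.5 times. Those 3 were in the comparison of the sexes in wild-type flies, where 1 member was called. Quantile normalization gave 2 (LysP and LysS). Another was the fit without the 3 arrays that held other-sex transcripts, chosen after seeing the data. It keeps replicate 3 as the only male wild-type array, so its count is not given. Leaving out each array in turn gave between 1 and 2. A further count, between the sexes in tko25t flies, also differed without the 3 arrays. It comes from that same fit and is not given either, although its contrast uses no wild-type array. Between the genotypes in females, 3 were called in place of 2 without the filter, with Peritrophin-15b. The filter had kept Peritrophin-15b out of the test in females, where its wild-type arrays were at background. Why the other counts differed was not tested. Of 373 log2 differences of members under alternatives, 12 moved by more than the spread between arrays and 0 calls were reversed. LysX in females ran between 1.68 with 4 times the offset and 2.74 with the offset divided by 4. Since the members were picked on their genotype differences, calls of these that recur across settings are no support.

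Over all probe sets, the number called in males was 1143, with 412 by SAM and 445 to 812 without each array in turn. It was 838 without the filter and 801 in a fit of all 12 arrays. The male count without the 3 arrays rests on wild-type replicate 3 alone and is not given. In females the number called was 197, with 130 without the filter, 307 in a fit of all 12 arrays, 122 without the 3 arrays, and 52 to 465 without each array. The difference between effects was called for 13, with 41 and 8 at the larger and smaller offset, 6 without the filter and 4 to 32 without each array.

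The replicate number as a block left the counts of called members at 1 in males, 2 in females, 1 between wild-type and 3 between tko25t sexes, and 0 for the difference between effects. It gave 966 calls in all in males and 324 in females. Arrays of the 2 genotypes with the same number correlated at −0.12 to 0.10 in males in their deviations from the group means. In females this was 0.01, 0.34 and 0.39 for replicates 1 to 3. The highest with another number was 0.11, 0.20 and −0.25. The main fits did not take the numbers to pair arrays, and pairing in females is not excluded. With probe sets near background, as Peritrophin-15b in wild-type females, small changes could not be measured.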
